A study of Mus musculus with 2 samples.

Results

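The cells described here are T cells from mouse spleen that carried transcripts of the cell division machinery. A cell was counted when at least 2 of 10 genes had a UMI in it, a UMI (unique molecular identifier) being the tag that marks 1 captured transcript. The 10 genes were Mki67, Top2a, Birc5, Ccnb1, Cdk1, Tpx2, Stmn1, Tyms, Rrm2 and Pclaf. Of 10338 cells kept, 75 met this rule (0.725%, 0.571 to 0.909), 1100 had exactly 1 of the 10 and 9163 had none. Intervals throughout are exact 95% intervals and cover counting error only. The cells went under the working name of cycling CD8 T cells. By cycle genes that the rule did not use, cycling fitted the 7 cells with 5 or more of the 10 and a few others, while the other 68 cells as a group had a level of mitosis genes within counting error of that of cells with none. By Cd3e and Trac, T cell fitted 6 of the 7, while all 7 had a UMI of Cd8a or Cd8b1. The text therefore speaks of the 75 cells by the rule, and gives values for the 7 and the 68 apart, a split chosen after their values were seen.

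The library came from GD2TIF cells, which are T cells of Cas9 transgenic mice, activated and infected with a retrovirus that targets Bcor and Zc3h12a and brings in 14g2a, a chimeric antigen receptor against the ganglioside GD2. Immunocompetent C57BL/6 mice each received 1000000 of them, and 2 months later 1000000 CD8+Thy1.1+ cells were sorted from spleen. A Singleron microwell chip gave 1 library of RNA and 1 of T cell receptors (TCR), with 4590 of the 5479 barcodes of the TCR table also in the RNA matrix. How many mice the cells came from is not stated in the labels, all cells compared share the Cas9 transgene and the retrovirus, and unedited cells are not analysed here.

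T cells that persist after a response are mostly at rest, and a small share of them divides to replace cells that are lost. A cell about to divide first makes the enzymes and loading factors that copy DNA (S phase), then the cyclins, kinesins and centromere proteins that separate the copies (G2 and mitosis). These genes are nearly silent at rest, and Rb-family proteins, p27 and FoxO or KLF2 programmes hold them down. In chronically stimulated CD8 T cells, division is known to be carried largely by cells that still express TCF-1, the product of Tcf7, and by their immediate offspring.

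There was 1 library, and cells of 1 library are not replicates, so nothing below was tested. Levels are UMIs per 1000000 UMIs (CPM), summed over the cells of a group. Because the cells were picked by cycle transcripts, every difference between them and the other cells is a description. A gene is called higher where its ratio was at least 1.5 with an interval above 1, at least 30 UMIs over both groups, UMIs in at least 5 of the 75 cells and no more than 33.3% of them in 1 barcode. A gene is called lower where the ratio was at most 1/1.5 with an interval below 1 and at least 20 UMIs would have been found at the level of the cells with none.

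The rule was met in most cells by the smallest margin. Exactly 2 of the 10 genes were found in 60 cells, 3 in 8 cells, 4 in none and 5 or more in 7. The commonest pair was Stmn1 with Tyms, in 16 of the 60, followed by Top2a with Stmn1 in 11. Stmn1, a regulator of microtubules, and Tyms, the thymidylate synthase that makes a DNA precursor, were the most widespread of the 10, with a UMI in 433 and 425 of all kept cells. Without Stmn1 in the rule 39 cells remained, and without Stmn1 and Tyms 19.

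The 10 genes were spread unevenly over the cells. The 7 cells were chosen by these same genes, so the shares that follow describe the rule and support nothing. Pclaf, a partner of the replication clamp, had 94 UMIs in 18 kept cells, and 83.0% of them lay in the 7 cells with 5 or more. Birc5, which encodes the mitotic regulator survivin, had 26 UMIs in 15 cells, and 65.4% lay in the 7. Pclaf had a UMI in 7 of the 7 cells, and Birc5 in 6. For Mki67, the nuclear antigen used as the standard mark of dividing cells, the share was 15.2% of 145 UMIs, and for Top2a, the topoisomerase that untangles copied DNA, 17.99% of 239. Most cells with a UMI of Mki67 or Top2a thus had no second gene of the 10, with 25 of 98 and 29 of 163 such cells among the 75.

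Depth moved with the rule, and its part in the differences was not tested beyond the weighted values given below. The median was 3077 UMIs in the 75 cells (988 to 17222) and 1881 in the cells with none (500 to 13761). The 7 cells had a median of 9485 UMIs, the 68 cells 2772.5, and the 7 held 20.8% of the 309765 UMIs of the 75. When each cell was thinned to 1000 UMIs, 24 of 9456 cells met the rule (0.254%, 0.163 to 0.377), with 882 shallower cells left out. All 7 cells with 5 or more of the 10 met it after thinning, against 17 of the 67 others that were deep enough.

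**Figure D1:**
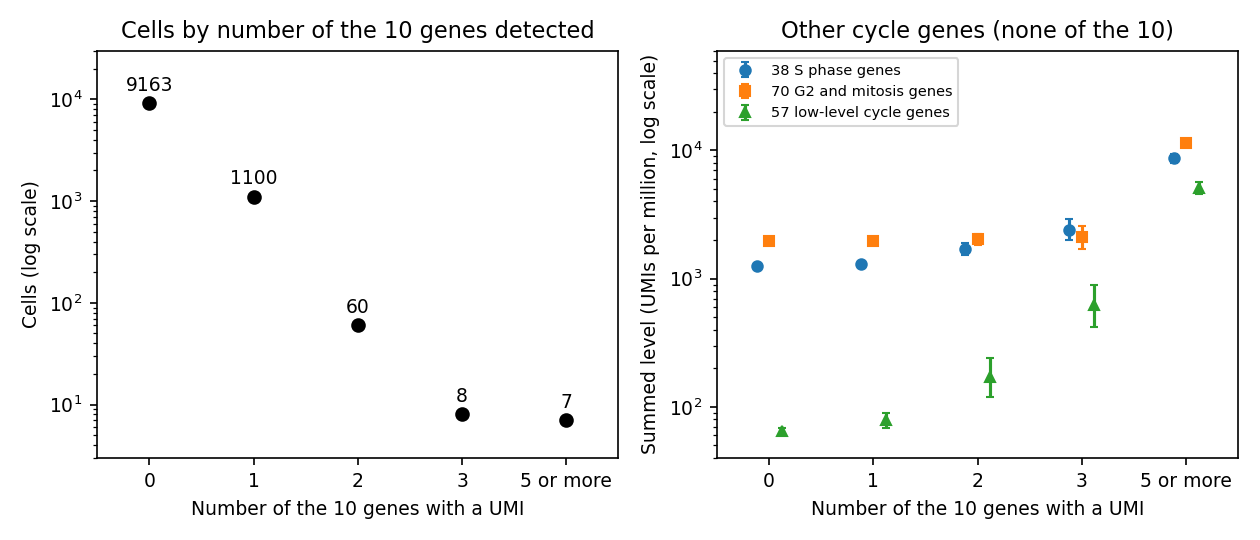
Left, number of cells (log scale) by how many of the 10 genes had a UMI; right, summed level of 3 groups of other cycle genes in the same cells (CPM, log scale, bars exact 95% counting intervals). No cell had exactly 4, and the level of the 70 G2 and mitosis genes stays near 2000 CPM until 5 or more of the 10 are present, where it is 11494.

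Cycle genes outside the 10 show how the cells divide into these classes. A list of 38 S phase genes and a list of 70 G2 and mitosis genes were summed. In the 7 cells the G2 and mitosis genes stood at 11494 CPM (10680 to 12354), in the 68 cells at 2037 (1862 to 2224) and in the cells with none at 1969 (1949 to 1989). The 7 cells were thus far above the rest, and the intervals of the 68 cells and of the cells with none overlap.

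The S phase genes stood at 8663 CPM in the 7 cells (7959 to 9414), 1845 in the 68 (1679 to 2023) and 1260 in the cells with none (1244 to 1276). Here the 68 cells as a group were above the cells with none by more than counting error. They were not alike: of their 453 S phase UMIs, 4 cells held 56, 49, 33 and 30, and the other cells were not summed apart. Both sums are carried in part, in the cells with none, by widely expressed members. Examples are tubulins in the G2 and mitosis list and Pcna in the S phase list. The 57 of the 108 genes that lay under 5 CPM over all cells were therefore also summed, a choice made after the values were seen. They stood at 5102 CPM in the 7 cells, with 328 UMIs, 261 CPM in the 68, with 64 UMIs, and 64.2 CPM in the cells with none. Of the 68 cells, 20 (29.4%) had a UMI of any of these genes. The share was 15.1% of the cells with exactly 1 of the 10 and 10.7% of the cells with none. It was not adjusted for depth. All of the 7 had such a UMI. The threshold of the rule lies between the 1100 cells with exactly 1 of the 10 and the 60 cells with exactly 2. Across it the G2 and mitosis level changed little, from 1963 CPM (1912 to 2016) to 2021 (1827 to 2229). The S phase level went from 1299 CPM (1257 to 1342) to 1707 (1529 to 1899). Low-level cycle genes went from 78.6 CPM (68.5 to 89.6) to 172 (119 to 241). The intervals of these last 2 pairs do not overlap.

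Within the 68 the signal was uneven. The 8 cells with 3 of the 10 had 625 CPM of the low-level cycle genes. A cell with Mki67, Top2a and Stmn1 held 14 of the 64 UMIs, with 30 S phase and 21 G2 and mitosis UMIs among 5244. A cell with Stmn1 and Tyms alone held 8, and had UMIs of 17 S phase and 15 G2 and mitosis genes, more than any cell with none. In cells with none of the 10 the median was 2 S phase and 3 G2 and mitosis genes, and the highest values were 11 and 12. All of the 7 cells were above both, and 4 of the 68 were above at least 1 of them. These numbers of genes were not adjusted for depth, which was greater in the 7.

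**Figure D2:**
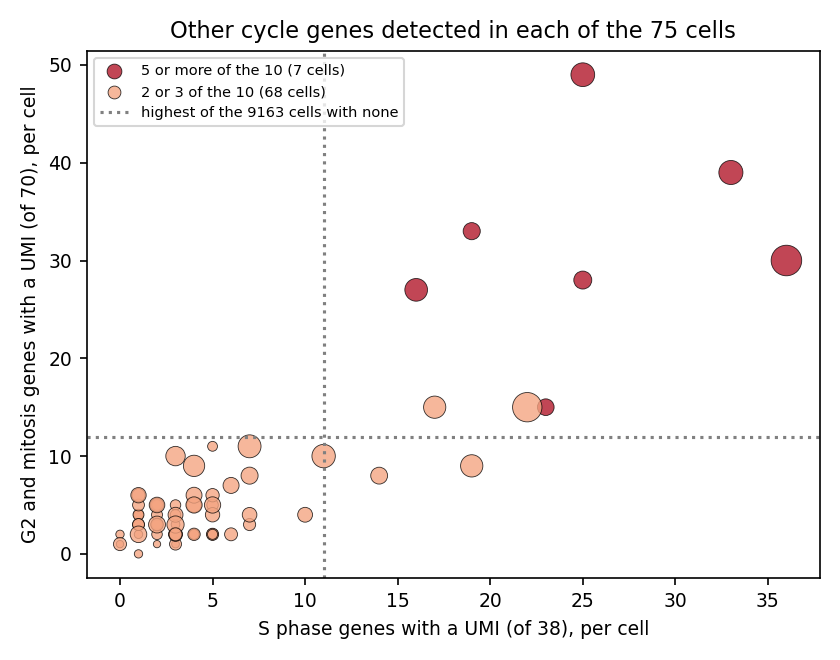
Each circle is 1 of the 75 cells, placed by the number of S phase genes (x, of 38) and of G2 and mitosis genes (y, of 70) with a UMI, its area proportional to its UMIs; dotted lines mark the highest value of any of the 9163 cells with none of the 10. The 7 cells with 5 or more of the 10 lie beyond both lines, and most of the 68 lie among the values of the cells with none. Numbers of genes are not adjusted for depth.

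The 7 cells differed from each other in which stage their transcripts belong to. Cell 1 had all 10 genes and leaned to G2 and mitosis, with 210 UMIs of the 70 genes against 66 of the 38 S phase genes. It held 14 UMIs of Ccna2, the cyclin of S phase and early mitosis, and 7 of Ccnb2, a mitotic cyclin. Cell 2, with 9 of the 10, held 118 and 112, about even, and 24 UMIs of Pclaf. Cell 3, the deepest of all kept cells at 17222 UMIs, held 150 and 177.

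Cells 4 and 5 had 7 of the 10 each and leaned to G2 and mitosis, with 77 against 31 and 80 against 32 UMIs. Cell 6 had 6 of the 10 and leaned to S phase, with 69 G2 and mitosis UMIs against 92 S phase UMIs, together with 12 UMIs of Top2a and 16 of Pclaf. Cell 7 had 5 of the 10, with 35 against 47, no more than 1 UMI each of Mki67 and Top2a, and 15 of Stmn1. Per 10000 UMIs the G2 and mitosis genes ranged from 68.3 to 202.0 over the 7 cells and the S phase genes from 32.7 to 154. The medians were 110 and 91.7, against 17.8 and 11.2 in the cells with none. Single cells with none reached 119 and 115, and most of the 7 lay under these highest values.

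By Cd3e and Trac, the label of T cell held for 6 of the 7. Cells 1 to 6 had 10 to 18 UMIs of Cd3e, which encodes a chain of the CD3 complex, and 4 to 20 of Trac, the constant region of the TCR alpha chain. Cell 7 had 0 UMIs of both, with 2 each of Cd3d and Cd3g, 4 of Trbc1 and 6 of Trbc2. It also had 8 UMIs of Klrb1c (NK1.1), 4 of Ncr1 (NKp46) and 4 of Klre1, receptors of natural killer cells, and it was the only kept cell with at least 2 of these 3 genes. The sort gate asked for CD8 and Thy1.1, and whether the barcode held more than 1 cell was not tested. Without it the 6 cells stood at 8620.0 CPM of S phase genes and 11882 CPM of G2 and mitosis genes. Of the 75 cells, none lacked a UMI of all of Cd3e, Cd3d and Cd3g.

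Cd8a and Cd8b1, the chains of the CD8 coreceptor, were thinly captured. Cells 3 and 4 had 0 UMIs of Cd8a and 3 and 1 of Cd8b1. Cell 2 had 2 of Cd8a and 0 of Cd8b1, and cell 7 had 1 of each, so these genes did not set cell 7 apart. Over all 13 genes of CD8 T cell identity the level was 9270 CPM in the 7 cells, 13684 in the 68 and 13899 in the cells with none. The 7 cells were lower, with Cd3d at 280.0 CPM in the 7, 1043 in the 68 and 1067 in the cells with none, and Thy1 at 264 in the 7, 485 in the 68 and 565 in the cells with none.

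Markers of other lineages were not higher in sum in the 75 cells by more than counting error, and 3 of the lists were lower. The 8 B cell markers summed to 546 CPM in the 75 cells and 723 in the cells with none (0.755, 0.645 to 0.879). Cd79a had no UMI in any cell with 3 or more of the 10. Ighm, of the same list, had 1 to 8 UMIs in each of cells 1 to 6 and 0 in cell 7. The 5 plasma cell markers summed to 103 and 107 CPM, and the 5 markers of CD4 and regulatory T cells to 261 and 349 (0.749, 0.594 to 0.933). The 4 measured NK markers, which include the T cell gene Eomes, summed to 284 CPM in the 75 cells and 332 in the cells with none. The 3 measured neutrophil markers were at 0 in the 75 cells, and the 3 measured erythroid markers stood at 6.46 CPM against 122 (0.053, 0.0064 to 0.191).

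Of the 7 cells, 5 (71.4%) had UMIs of 2 or more B cell markers, against 17.5% of the cells with none and 21.4% of them when weighted to the depth of the 7. The B cell marker level of the 7 was 513 CPM, against 723, and the part of such markers in the other results was not tested. Leaving out all cells with 2 markers of any other type took away 30 of the 75 cells, leaving 45, and the S phase ratio was then 2.05 and the G2 and mitosis ratio 1.19.

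Over all genes, the comparison of the 75 cells with the cells with none called 490 of 11204 genes higher (4.37%) and 200 of 2614 lower (7.65%). The cells were chosen by genes of this same contrast, so these shares are given as the background and nothing more. Of the 490, 91 were also called in the 7 cells alone and 199 in the 68 alone, and 72 had most of their UMIs in the 7. In the 7 cells 270 of 11182 genes were called higher (2.41%) and 121 of 414 lower (29.2%), and in the 68 cells 298 of 11191 higher (2.66%) and 85 of 2041 lower (4.16%). Of these, 19 genes were called higher in both. A higher call asked for UMIs in at least 5 cells of the group compared, so in 5 of the 7 or 5 of the 68. The counts of the 2 groups and their overlap are therefore not on a like footing. With the cells with none weighted to like depth, so that their UMI totals matched in bins of 0.25 on the log2 scale, the 75 cells had 529 genes higher (4.72%) and 106 lower (4.08%), and the 68 cells 271 higher (2.42%) and 66 lower (3.23%). Of the 75, 2 cells had no cell with none in their bin, 1 of them among the 7, and stayed in the sums. Only 171 cells with none were as deep as the shallowest of the 7. Without the 2, 492 genes were higher and 95 lower.

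S phase genes were the list with the most calls. Of 33 tested, 21 were called higher, against 4.37% of all genes tested. Of the 6 with enough UMIs to be called lower none was, against 7.65% of all such genes. The median ratio was 3.01, against 0.951 over all genes tested. In the 68 cells alone 6 of 32 were called higher, against 2.66% of all genes tested, and in the 7 alone 11 of 33, against 2.41%. The 6 helicase subunits that unwind DNA at replication origins were all called: Mcm2 at 3.01-fold, Mcm3 5.43, Mcm4 2.49, Mcm5 4.89, Mcm6 2.38 and Mcm7 2.63.

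Of the 6 S phase genes called higher in the 68 cells as a group, 5 were helicase genes. How far these calls rest on the few cells with most S phase UMIs was not tested. Mcm3 stood at 311 CPM in the 7 cells, 85.5 in the 68 (53.0 to 131) and 24.4 in the cells with none. Mcm6 stood at 420.0 CPM in the 7, 200 in the 68 (148 to 264) and 103 in the cells with none. Mcm2 to Mcm6 were each called higher in the 68 cells, and Mcm7 was not. The same 5 were called at like depth.

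Other replication genes belonged almost wholly to the 7 cells. Tk1, the thymidine kinase of S phase, had 19 UMIs in the 75 cells, 18 of them in the 7, and stood at 61.3 CPM in the 75 against 1.72 in the cells with none (35.6-fold, 19.1 to 64.5). Uhrf1, which carries DNA methylation over to the new strand, had 18 of 23, and was 22.6-fold higher in the 75 cells (13.4 to 36.9).

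Chaf1a, a chaperone that places histones on new DNA, was 22.5-fold higher, and Gins2, a part of the replicative helicase, 14.7-fold. Gmnn, the inhibitor of repeated origin licensing, was 10.3-fold higher, with UMIs in 6 of the 7 cells. Pcna, the sliding clamp, was expressed in the cells with none too, at 120.3 CPM, against 731 in the 7 cells and 163 in the 68.

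The G2 and mitosis list had 39 genes tested, with 15 called higher, against 4.37% of all genes tested, and a median ratio of 2.63. Of the 8 with enough UMIs 1 was called lower, against 7.65% of all such genes. In the 68 cells alone 3 of 37 were called higher, against 2.66%, and 3 of 8 lower, against 4.16%, with a median of 1.02. In the 7 alone 4 of 38 were called higher, against 2.41%, with a median of 8.89. A call there asked for UMIs in at least 5 of the 7. Ccnb2, the mitotic cyclin, showed the largest ratio of all genes, 381-fold (160 to 1106), from 37 UMIs in 8 of the 75 cells and 6 UMIs in the 9163 cells with none. Of its UMIs, 23 lay in 5 of the 7 cells and 10 in the cell with Mki67, Top2a and Stmn1.

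Centromere and spindle genes followed it. Cenps was 33.7-fold higher, Cenph 23.8-fold, Cenpw 6.83-fold and Spc25 15.9-fold, all parts of the centromere or kinetochore. Cdca8, a subunit of the chromosomal passenger complex, was 23.6-fold higher, and Mad2l1, of the spindle checkpoint, 7.15-fold. Cenph had a UMI in all 7 cells, with 33 of its 42 UMIs there.

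The tubulins Tubb5 and Tuba1b were higher in the 7 cells, while the 68 lay near the cells with none. Tubb5 stood at 1866 CPM in the 7, 249 in the 68 and 287 in the cells with none, and Tuba1b at 2178 CPM in the 7, 416 in the 68 and 401 in the cells with none. Tubb4b, Tuba1c and Hjurp were called lower in the 68 cells, at 0.63-, 0.59- and 0.50-fold, with 31, 28 and 12 UMIs. Tubulin genes are close copies, and reads could be split between them.

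Of the 20 named genes with the largest ratios, 12 belong to the S phase or the G2 and mitosis list and 17 had most of their UMIs in the 7 cells. The exceptions were Klk1b9, Pomt1 and Galnt3. Klk1b9, a kallikrein with close paralogs, had 17 UMIs in 9 cells, 13 of them in the 68, and was 9.39-fold higher. Pomt1 and Galnt3, which encode glycosyltransferases, rested on 6 and 8 UMIs.

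The promoters of these genes are shown because cycle genes are known to share short control letters. E2F factors act on S phase genes, and the DREAM and B-Myb complexes act on mitotic genes through the cell cycle homology region (CHR) near CCAAT boxes. Sequences are from RefSeq, build GRCm38.p6, 250 bases before to 50 after the start, 5′ to 3′ on the gene's strand. Capitals mark TTTGAA (CHR), CCAAT and the E2F letters TTTCCCGC, TTTGGCGC or TTTCGCGC, on either strand, and marked stretches may touch or overlap. Ccnb2 lies on the minus strand at chr9:70421505-70421804, Top2a on the minus strand at chr11:99024140-99024439 and Pclaf on the plus strand at chr9:65890073-65890372.
Ccnb2: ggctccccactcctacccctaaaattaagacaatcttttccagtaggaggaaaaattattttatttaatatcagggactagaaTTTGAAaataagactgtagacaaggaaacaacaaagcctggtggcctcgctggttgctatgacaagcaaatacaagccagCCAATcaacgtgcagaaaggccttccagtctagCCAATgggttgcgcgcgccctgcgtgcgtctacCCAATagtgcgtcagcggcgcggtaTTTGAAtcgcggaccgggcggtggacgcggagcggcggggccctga
Top2a: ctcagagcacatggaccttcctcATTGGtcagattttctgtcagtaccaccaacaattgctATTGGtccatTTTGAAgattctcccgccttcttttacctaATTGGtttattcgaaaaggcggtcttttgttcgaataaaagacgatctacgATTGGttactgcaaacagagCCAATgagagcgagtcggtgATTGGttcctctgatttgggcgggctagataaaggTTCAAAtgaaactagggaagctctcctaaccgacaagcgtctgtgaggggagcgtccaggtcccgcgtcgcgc
Pclaf: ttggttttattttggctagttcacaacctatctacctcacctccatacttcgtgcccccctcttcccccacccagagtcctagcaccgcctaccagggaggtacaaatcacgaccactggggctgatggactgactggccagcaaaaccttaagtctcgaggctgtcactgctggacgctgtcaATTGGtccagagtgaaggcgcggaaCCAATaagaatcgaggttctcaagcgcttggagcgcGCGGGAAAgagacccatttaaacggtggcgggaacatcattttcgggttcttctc

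The Ccnb2 window holds CHR letters that begin 167 bases before and 4 bases after the start, and CCAAT letters 87, 54 and 21 bases before it. The Top2a window holds CHR letters 179 and 23 bases before the start and 6 CCAAT matches. The Pclaf window holds 1 E2F match 5 bases before the start and CCAAT letters 66 and 41 bases before it. Not every cycle gene held such letters. The Tk1 window, not shown, held no match, and that of Ccnb1 held 2 CCAAT matches and no CHR. Of the 10 rule genes, 8 had a promoter sequence, and 37.5% of these held the CHR letters.

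Of the 70 G2 and mitosis genes 59 matched the promoter table, and 64.4% of these held the CHR letters, against 20.2% of all 27025 genes in it. Of the 38 S phase genes 31 matched, and 38.7% held an E2F match, against 2.12%. CCAAT was found in 72.9% of the G2 and mitosis genes and 61.3% of the S phase genes, against 41.1%. CHR together with CCAAT was found in 54.2% of the G2 and mitosis genes, against 7.97%. Within the last 150 bases the CHR shares were 57.6% and 9.23%. A match is a match of letters, not evidence of binding in these cells.

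Chromatin genes were higher in the 7 cells. Of 23 tested, 8 were called higher over the 75 cells, against 4.37% of all genes tested. The summed level of the list in the 7 was 2.41 times that of the cells with none, against 1.10 times in the 68. Hmgb2, a chromatin protein abundant in dividing cells, stood at 2084 CPM in the 7, 550.0 in the 68 and 406 in the cells with none. Ezh2, the Polycomb methyltransferase, stood at 607 CPM in the 7, 102 in the 68 and 77.2 in the cells with none.

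Growth and energy genes were also higher in the 7. The list of ribosome assembly and nucleotide supply summed to 2.88 times the level of the cells with none in the 7 and 1.18 times in the 68, glycolysis to 2.40 and 1.09 times, and oxidative phosphorylation to 1.92 and 1.16 times. Over the 75 cells 10 of 22, 4 of 15 and 3 of 17 genes of these lists were called higher, against 4.37% of all genes tested, and none lower. Ldha, lactate dehydrogenase, stood at 1524 CPM in the 7, 452 in the 68 and 305 in the cells with none.

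These lists move with depth. Against cells with none weighted to the depth of the 75, the ratio of the ribosome and nucleotide list was 0.834 in place of 1.53, and that of Ldha in the 7 cells was 1.67 in place of 5.00. Npm1, a nucleolar protein, was 2.98-fold higher in the 7 cells against all cells with none and 0.71-fold against those of like depth. Depth-weighted values for the S phase list changed little, at 2.56 against 2.59. Tubb5 was 6.53-fold higher in the 7 cells after weighting, and Hmgb2 8.68-fold. These weighted values keep the cell of the 7 that had no counterpart in depth. Without it Ldha was 1.42-fold (0.90 to 2.30), so that its interval included 1, and Npm1 was 0.43-fold (0.32 to 0.58). Tubb5 was then 6.25-fold (3.80 to 10.7) and Hmgb2 10.6-fold (6.96 to 16.7).

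**Figure D3:**
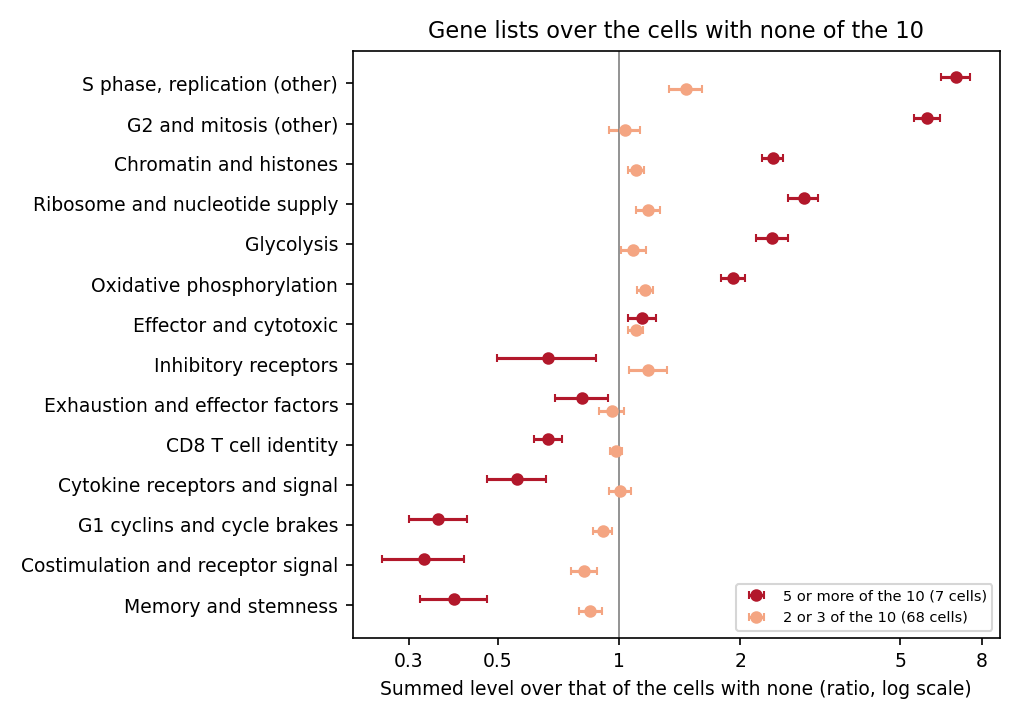
Ratio of the summed level of each gene list to that of the 9163 cells with none of the 10 (log scale, bars exact 95% counting intervals), for the 7 cells with 5 or more and the 68 cells with 2 or 3. The 7 cells run from 0.328 (costimulation) to 6.87 (S phase), and the 68 cells from 0.820 to 1.46.

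Memory and stemness genes were lower, most of all in the 7 cells. Over the 75 cells none of 19 was called higher, against 4.37% of all genes tested. Of the 14 with enough UMIs to be called lower 5 were, against 7.65% of all such genes. The median ratio was 0.722, against 0.951 over all genes tested. At like depth 3 of 12 were called lower, against 4.08% of all such genes, and of the 5 Cxcr5 alone was among them. Tcf7, which encodes TCF-1 of memory and stem-like T cells, had 9 UMIs in the 7 cells, found in 4 of them. That is 140.0 CPM in the 7 (64.0 to 266), 497 in the 68 (413 to 593) and 638 in the cells with none.

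Tcf7 was not called in the 68 cells. Per cell, cells 1, 5 and 6 had 0 UMIs of Tcf7, cells 2, 4 and 7 had 2 and cell 3 had 3. Against cells of like depth the ratio in the 7 was 0.23 (0.09 to 0.49), close to the 0.22 without weighting, and it was 0.21 (0.070 to 0.51) without the cell of the 7 that had no counterpart in depth.

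Slamf6, a surface mark of stem-like cells, stood at 93.3 CPM in the 7, 383 in the 68 and 443 in the cells with none, and Cd27, a costimulatory receptor of memory cells, at 249 in the 7, 452 in the 68 and 568 in the cells with none. Of the 5 genes of the list that could be called lower in the 7, 4 were, Tcf7, Slamf6 and Cd27 among them, against 29.2% of all such genes. Without cell 7 the summed level of the list was 0.377 times that of the cells with none, against 0.389 times with it.

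Il7r, the receptor for the survival cytokine IL-7, was the gene with the lowest ratio over the 75 cells. It had 6 UMIs in 4 of them, all among the 68, and stood at 19.4 CPM in the 75 (7.11 to 42.2) and 84.8 in the cells with none, a ratio of 0.228 (0.0837 to 0.498). At like depth its ratio was 0.348 and the call was lost, and Tra2a and Aff3 were then lower, at 0.326 and 0.338. The chemokine receptors Ccr7, Cxcr5 and Cxcr3 were called lower at 0.534, 0.427 and 0.552-fold. At like depth Ccr7 was at 0.764 and Cxcr3 at 0.492, and neither was called. Ly6c2, a surface protein of memory CD8 T cells, had 42 UMIs in the 68 cells but from only 5 of them, and was not called.

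Genes that hold cells at rest were also low in the 7 cells. Klf2, a transcription factor of quiescence and recirculation, stood at 498 CPM in the 7 cells (340.4 to 703), 2245 in the 68 and 2621 in the cells with none, and the ratio in the 7 was 0.19, or 0.39 at like depth. Txnip, an inhibitor of glucose uptake, had 5 UMIs in the 7 cells, all of them in cell 7, or 77.8 CPM, against 790.3 in the 68 and 786 in the cells with none. A list of G1 cyclins and cycle brakes, which holds genes that drive the cycle too, had 15 genes with enough UMIs. Over the 75 cells 3 of these were called lower, against 7.65% of all such genes. They were Cdkn1b, which encodes the CDK inhibitor p27, at 0.637, Cdkn2d at 0.566 and Trp53inp1 at 0.551. At like depth none of these 3 was called, with ratios of 0.784, 0.677 and 0.699. Cdk4, the kinase that starts the cycle, was called higher at 1.92 (1.43 to 2.54), but not at like depth, where the ratio was 1.38.

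The immediate early genes Fos and Junb, known to respond to receptor signals and to cell handling, were low in the 7. Fos had 2 UMIs there, 31.1 CPM, against 322 in the 68 and 451 in the cells with none. Junb stood at 171 CPM in the 7, 945 in the 68 and 1245 in the cells with none. Of the list of costimulation and receptor signal genes, 3 of the 9 with enough UMIs were called lower over the 75 cells, Cd28, Junb and Fos. The share was 7.65% over all such genes. None of 15 was called higher, against 4.37% of all genes tested. At like depth none of the list was called lower, with Cd28 at 0.769, Junb at 0.760 and Fos at 0.731. In the 7 cells 4 of 4 were called lower, against 29.2% of all such genes, with Fos and Junb at 0.15 and 0.26 at like depth.

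**Figure D4:**
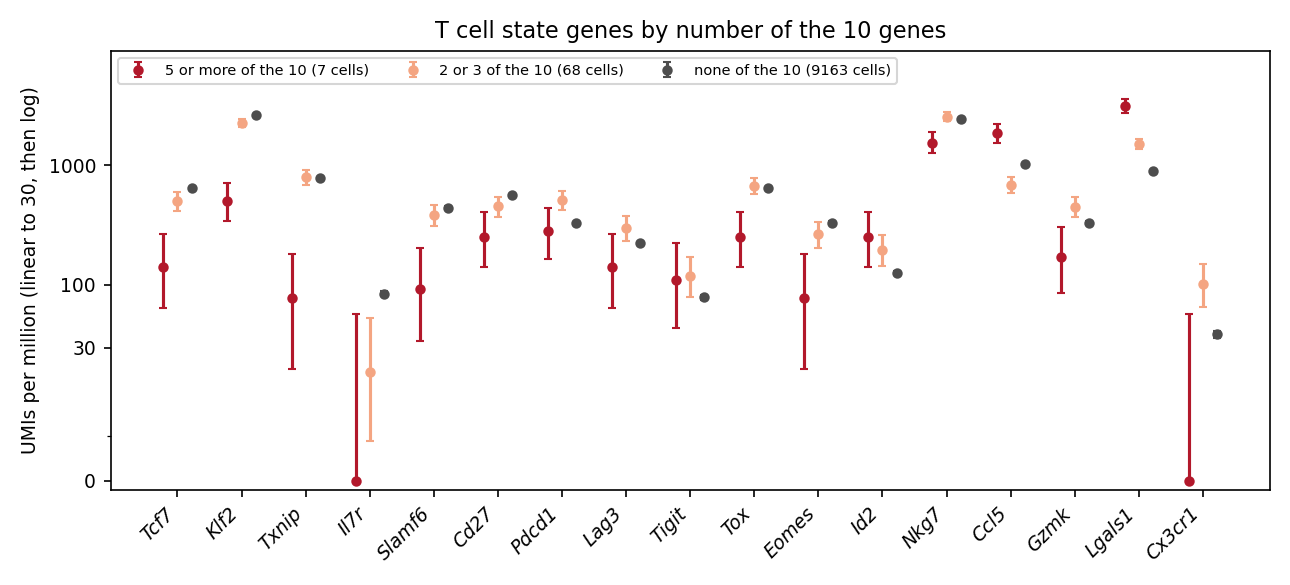
Levels of 17 T cell state genes (CPM, linear to 30 and log above, bars exact 95% counting intervals) in the 7 cells with 5 or more of the 10, the 68 cells with 2 or 3 and the 9163 cells with none. The 7 cells lie below the other groups for Tcf7, Klf2 and Txnip and above them for Lgals1. Their summed Ccl5 is also above, but it rests on cells 1, 5, 6 and 7. The 68 cells lie near the cells with none for most genes.

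Inhibitory receptors summed to 0.666 times the level of the cells with none in the 7 (0.496 to 0.876) and 1.18 times in the 68 (1.06 to 1.31). Over the 75 cells none of 15 was called higher, against 4.37% of all genes tested, with a median ratio of 1.01. Of the 7 genes with enough UMIs 1 was called lower (Btla, 0.505), against 7.65% of all such genes. At like depth Btla was at 0.622 and was not called. Pdcd1, which encodes PD-1, stood at 280.0 CPM in the 7 cells (166 to 442), 509 in the 68 (424 to 607) and 329 in the cells with none. It was called higher in the 68 at 1.55-fold (1.29 to 1.85), but not at like depth, where the ratio was 1.49. Tigit was called higher in the 68 at 1.5-fold (1.00 to 2.17). Lag3 stood at 140.0 CPM in the 7 cells, 297 in the 68 and 222 in the cells with none, and was not called. Havcr2, which encodes TIM-3, had 2 UMIs in the 75 cells, too few to compare.

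Transcription factors of exhaustion and effector fate moved in different directions. Of 20 tested, 3 were called higher over the 75 cells, against 4.37% of all genes tested. Of the 10 with enough UMIs 1 was called lower, against 7.65% of all such genes. The median ratio was 0.912. Id2, a repressor of E proteins in effector cells, was 1.64-fold higher (1.26 to 2.11), and called in the 68 cells as well. Prdm1, which encodes Blimp-1, was 2.41-fold higher from 14 UMIs in 9 cells, and Irf8 1.93-fold with most of its UMIs in 3 of the 7. Bhlhe40 was lower at 0.628. At like depth Prdm1, at 2.04, and Bhlhe40, at 0.831, were not called.

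Tox, the factor that sustains exhausted T cells, was low in the 7 cells, at 249 CPM against 672 in the 68 and 645 in the cells with none. Eomes, a T-box factor of memory and exhausted cells, stood at 77.8 CPM in the 7, 265 in the 68 and 330.3 in the cells with none. Both were called lower in the 7, and at like depth Tox was 0.45-fold (0.23 to 0.82) and Eomes 0.52-fold (0.17 to 1.24), so that the interval of Eomes then included 1. Without the cell of the 7 that had no counterpart in depth, Tox was 0.53-fold (0.27 to 1.01), and its interval included 1 too.

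Among effector and cytotoxic genes, 3 of 23 were called higher over the 75 cells, against 4.37% of all genes tested. None of 14 was called lower, against 7.65% of all such genes, and the median ratio was 0.955. The summed level of the list was 1.11 times that of the cells with none (1.07 to 1.15), at 1.14 times in the 7 (1.05 to 1.24) and 1.10 times in the 68 (1.05 to 1.15). In the 7 cells 5 of 9 were called lower, Gzmk, Nkg7, Ctsw, Srgn and S100a6, against 29.2% of all such genes. In the 68 cells 1 of 13 was, Prf1, which encodes perforin, at 0.655, against 4.16% of all such genes. Lgals1, which encodes galectin-1 and is raised in activated T cells, was the 1 gene of the list called in the 7 and the 68 alike, at 3126 CPM in the 7 cells, 1503 in the 68 (1354 to 1665) and 890.4 in the cells with none. All 7 cells had it, and 52 of the 68. Cx3cr1, a chemokine receptor of effector cells, and Capg, an actin-capping protein, were called in the 68 cells and not in the 7, at 2.63-fold (1.69 to 3.92) and 2.17-fold (1.69 to 2.76). Cx3cr1 had no UMI in the 7, where 3 UMIs would be 46.7 CPM.

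Nkg7, of cytotoxic granules, stood at 1540 CPM in the 7, 2542 in the 68 and 2431 in the cells with none, and at like depth its ratio in the 7 was 1.10. Gzmk, a granzyme, was at 0.516 in the 7 and at 1.41 at like depth. Ccl5, a chemokine of effector cells, was at 1851 CPM in the 7, 684 in the 68 and 1023 in the cells with none. Without cell 7 the other 6 cells were at 1352 CPM. Of their 80 UMIs, 79 were in cells 1, 5 and 6, so the level is not one of the 7 as a whole. Gzma, which encodes granzyme A, had 12 UMIs in the 75 cells, of which 5 each were in cells 6 and 7. Gzmb had 3 UMIs.

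The edited genes and their partners gave no higher call among 12 tested, against 4.37% of all genes tested. Of the 3 with enough UMIs none was called lower, against 7.65% of all such genes. Bcor, a corepressor of noncanonical Polycomb complexes, stood at 178 CPM in the 75 cells (134 to 231) and 170 in the cells with none. Zc3h12a, which encodes the RNase Regnase-1, had 4 UMIs in the 75 cells, 12.9 CPM (3.52 to 33.1), against 48.1 CPM in the cells with none, below the number of UMIs set for a call. A cut by Cas9 need not lower the RNA, so they are no check of the editing. Stat3 was the 1 gene of 20 cytokine receptor and signal genes called higher, at 1.5-fold (1.16 to 1.91), where the share over all genes tested was 4.37%. Socs1 and Socs3, inhibitors of that signal, were called lower at 0.571 and 0.642. At like depth neither was called, with Socs1 at 0.719 and Socs3 at 0.916.

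Receptor sequences were available for part of the cells. Of the 75, 30 had exactly 1 productive TCR beta chain (TRB), 5 had 2 and 40 had none. A share of 6.67% with 2 TRB (2.20 to 14.9) compares with 2.03% of the cells with none. Cells were placed in families by the nucleotide sequence of the third complementarity-determining region (CDR3) of the TRB, whose segments lie on chromosome 6. The 30 cells fell in 10 families.

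Most of the 30 placed cells were in large families. Of the 30, 28 were in the 12 largest families (93.3%, 77.9 to 99.2), against 66.7% of the 3408 cells with none (65.1 to 68.2). None was in a family of 1 or 2 cells (0 to 11.6%), where 10.7% of the cells with none lay.

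The largest family, TRBV15 with TRBJ1-1, held 10 of the 30 cells (33.3%, 17.3 to 52.8) against 22.7% of the cells with none, a ratio of 1.47 (0.700 to 2.71). The next, TRBV12-2+TRBV13-2 with TRBJ2-3, held 4 (13.3%, against 15.7%). The fourth largest, TRBV29 with TRBJ1-1, held 5 (16.7%, 5.64 to 34.7) against 4.75%, and its ratio of 3.51 had an interval of 1.12 to 8.35. It was the only family of the 12 whose interval lay above 1, and with 12 families compared and no replicate it is given as a value only.

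Families differed in depth, and weighting the cells with none to the depth of the 75 made the shares 17.3%, 27.1% and 5.40% for these same 3 families. The fifth largest, TRBV15 with TRBJ2-5, gave 0 of 151 cells, where 3 cells would be 1.99% and the exact upper limit is 2.41%. Ranks 10 to 12 gave 0 of 77, 59 and 50 cells.

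**Figure D5:**
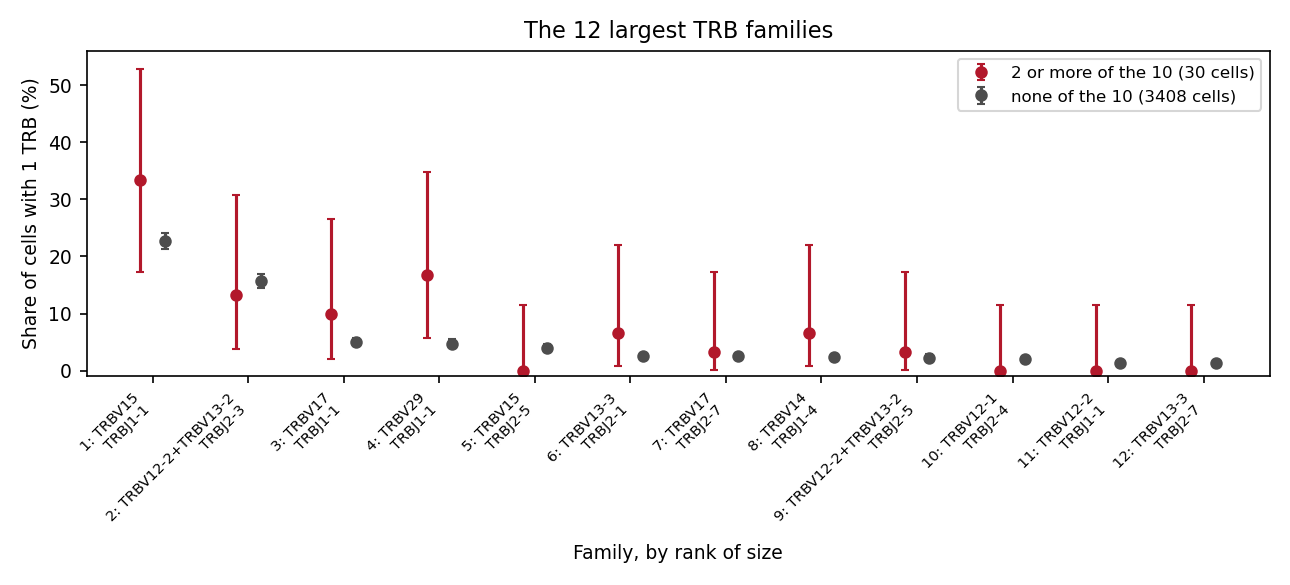
Share of cells with exactly 1 TRB (percent) in each of the 12 largest TRB families, for the 30 cells with 2 or more of the 10 and the 3408 cells with none, with exact 95% counting intervals. Most intervals of the 30 cells span the share of the cells with none, and the TRBV29 family, rank 4, lies above it at 16.7% against 4.75%.

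Among the 7 cells, 4 had a receptor in the TCR table, and 3 of these 4 carried the same pair. Cells 1, 5 and 6 shared the alpha chain TRAV6-7-DV9 with TRAJ26 and the beta chain TRBV17 with TRBJ1-1, the third largest family. That beta chain was found in 209 of 4126 kept cells with a TRB (5.07%, 4.42 to 5.78), and 3 of 4 is 75% with an interval of 19.4 to 99.4. The family was picked because these cells were seen to share it. With 4 cells and no replicate the share is given as a value only. Cell 2 carried TRAV13N-1 with TRAJ15 and TRBV29 with TRBJ1-1. Cell 5 had a second beta chain, that of the largest family, with 9 UMIs beside 12 of TRBV17, and whether 2 cells shared its barcode was not tested. The CDR3 sequences of these cells are given 5′ to 3′, since they are what ties them together.
TRA of cells 1, 5 and 6 (chromosome 14): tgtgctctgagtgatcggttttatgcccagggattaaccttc
TRB of cells 1, 5 and 6 (chromosome 6): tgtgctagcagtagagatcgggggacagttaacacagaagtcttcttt
TRA of cell 2 (chromosome 14): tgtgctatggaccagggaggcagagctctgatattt
TRB of cell 2 (chromosome 6): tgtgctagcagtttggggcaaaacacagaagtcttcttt
second TRB of cell 5 (chromosome 6): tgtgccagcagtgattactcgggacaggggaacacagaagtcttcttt

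The 3 cells were set beside the cells of the TRBV17 TRBJ1-1 family with none of the 10. The 3 had 10395, 5409 and 5963 UMIs, against a median of 2130 over the 200 cells of the family. These values were not weighted for depth, and its part in them was not tested. Cell 5 also carried the TRB of the largest family, while the cells of the family had exactly 1 TRB. Tcf7 had 0 UMIs among the 21767 of the 3 cells (exact upper limit 169 CPM), against 517 CPM in the 171 cells of the family (449 to 593). Klf2 had 2 UMIs, or 91.9 CPM (11.1 to 332), against 2244. Slamf6 had 0 UMIs, against 318 CPM.

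Lgals1 and Hmgb2 were higher in the 3 cells than in that family, at 2986 CPM (2305 to 3806) against 780.0, and at 2940.2 CPM (2264 to 3755) against 462. The family itself was rich in Ccl5, at 2403 CPM against 870.2 in the largest family, and the 3 cells had 3629 CPM (2873 to 4523). Gzma stood at 276 CPM in the 3 cells (101 to 600.0) against 65.6 in the family, but 5 of its 6 UMIs were in cell 6, 1 in cell 5 and 0 in cell 1. Pdcd1, Lag3 and Tox had intervals in the 3 cells that overlap those of the family.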

How the data were processed

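The values deposited by the authors are UMI counts for each gene and barcode, without normalization, and counts of reads and UMIs for each TCR contig. Per the submitters' processing notes, GRCm38, featureCounts 2.0.1, STAR 2.6.1a and cutadapt 1.17 were used, in roles the notes leave out, and no source used here names the program that assembled the TCR contigs. Of 10387 barcodes, 49 with under 200 genes or at least 20% mitochondrial UMIs were left out. No doublet caller was used, and barcodes with 2 productive TRB were left out in an alternative. Counts were summed over cells with python 3.11.15, numpy 2.4.6, scipy 1.17.1 and pandas 2.3.3, and drawn with matplotlib 3.10.9. Sums have Poisson, ratios conditional and shares Clopper-Pearson exact 95% intervals. A count of 0 was read against 3 counts. The ratio script was checked on simulated data. Text could name every listed gene, the 20 highest and 10 lowest called genes, leaving out the 10 rule genes and TCR, immunoglobulin, haemoglobin and mitochondrial genes, and the 12 largest TRB families. Some of these are not reported here. Of the list genes, 2 were matched by identifier. The rule, lists and tests were chosen with earlier results of these data known.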

Additional observations from a re-analysis of the deposited data

How the results depend on the processing

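The S phase, mitosis and memory ratios depend on the 7 cells: without them 298 genes were called higher and 85 lower, and the summed ratios were 1.46 for S phase, 1.03 for G2 and mitosis and 0.849 for memory genes, while in the 7 alone 270 and 121 genes were called, with 6.87, 5.84, 0.389, inhibitory receptors at 0.666 and exhaustion factors at 0.807. In the comparison as reported, 490 genes were called higher and 200 lower, and the ratios were 2.59 for S phase, 2.03 for G2 and mitosis, 0.753 for memory, 1.07 for inhibitory receptors, 0.927 for exhaustion factors and 1.11 for effector genes. With the cells with none weighted to the depth of the 75, 106 genes were lower, 54 of them shared with the 200, and the ratios were 1.81 for G2 and mitosis, 0.992 for exhaustion factors and 1.19 for effector genes; Srm (0.503), Shmt2 (0.851), Nasp (0.966), Nme1 (0.867), Dctpp1 (0.833) and Npm1 (0.900) turned lower. With cells carrying 2 markers of another type left out, which takes out at least 5 of the 7, 254 genes were higher and 21 lower, and the ratios were 2.05, 1.19, 0.951, 1.33 and 1.02 for S phase, G2 and mitosis, memory, inhibitory receptors and exhaustion factors; Cox5a (0.922), Tubb5 (0.801), Tuba1b (0.981), Smc2 (0.892), Ran (0.854), Tacc3 (0.965) and Dctpp1 (0.835) turned lower. With at least 3 of the 10 genes, 15 cells remained, with ratios of 4.75 for S phase, 3.80 for G2 and mitosis, 0.552 for memory and 0.867 for inhibitory receptors, and, from the 3 of them with 1 TRB, ratios of family shares of 0 for TRBV15 TRBJ1-1, 0 for TRBV12-2+TRBV13-2 TRBJ2-3 and 13.3 for TRBV17 TRBJ1-1. Without Stmn1 in the rule, 39 cells gave 3.24 for S phase, 2.61 for G2 and mitosis and 0.667 for memory. Thinning left 24 cells. Averaging over cells in place of summing gave 1.87, 1.48, 0.809, 1.00 and 1.17 for S phase, G2 and mitosis, memory, exhaustion factors (now just above 1) and effector genes. Within the 30 cells with 1 TRB, against cells with none weighted to the same families, 249 genes were higher and 57 lower, with 2.86, 2.40 and 0.908 for S phase, G2 and mitosis and memory, and Cdkn1b at 1.05. Against cells with exactly 1 of the 10, inhibitory receptors stood at 0.968 and effector genes at 1.01. Without the 7 cells Tubb5 (0.867), Dnmt1 (0.857), Smc2 (0.991), Ran (0.996), Irf8 (0.957) and Cks2 (0.847) turned lower, and in the 7 alone Nasp (0.981), Capg (0.948) and Cx3cr1 (0, no UMI) did and Hjurp (1.11) turned higher. Over 98 named genes and all alternatives, 683 values kept direction and call, 468 kept direction only and 24 turned. The cause was not tested. The alternatives that split the 75 by 5 or more of the 10, leave out the barcode with NK genes, use cells with 1 gene as the comparison or leave out cells with no counterpart in depth were added after seeing the data. In the 68 cells the 64 UMIs of low-level cycle genes are too few to say which cells divide. No paired analysis was possible because the RNA and the TCR data are 1 library each, with no replicates.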

Other observations

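Several of the genes with the lowest ratios over the 75 cells, after Il7r, came from no single list. Il17ra, a chain of the IL-17 receptor, stood at 38.7 CPM in the 75 cells and 108 in the cells with none (0.359, 0.185 to 0.628), with 12 UMIs in 11 cells, none of them among the 7. Aff3, a nuclear protein of the transcription elongation family, stood at 25.8 CPM against 81.7 (0.316), and Phf1, a Polycomb accessory protein, at 19.4 against 69.2 (0.280). Crybg1, Ktn1, Gramd3, Tra2a and Filip1l lay between 0.323 and 0.363, each from 7 to 10 UMIs. Of these 8 genes, Crybg1 and Filip1l had 1 UMI in the 7 cells and the others had none. At like depth Phf1, at 0.369, and Crybg1, at 0.411, were not called.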
